A study of Mus musculus with 11 samples.

Results

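The 38 genes described here encode the machinery with which a cell passes from G2 phase into mitosis, separates its chromosomes and divides. They were chosen by symbol for their known roles, with earlier results of these data known, and all 38 were found among the 27179 genes of the count files. Sequencing of polyadenylated RNA had been done on brain tissue of 11 mouse embryos at embryonic day 9.5, cut just behind the otic vesicle, the rudiment of the inner ear. The groups were 4 affected females that were p53-/- Bim+/-, 4 control males that were also p53-/- Bim+/-, and 3 control females that were p53+/+ Bim+/-. All embryos were C57BL/6 and carried 1 intact allele of Bim, a cell death gene, so that no group was wild type. The labels do not say how the affected females were affected. The compound mutants came from crosses of single-mutant strains, each library is 1 embryo, and the controls of the affected females differ from them in p53 genotype (control females) or in sex (control males).

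Entry into mitosis is driven by the kinase Cdk1 bound to A-type and B-type cyclins and is switched on by Cdc25 phosphatases and the kinases Plk1 and Aurora A. The spindle checkpoint then holds back the anaphase-promoting complex, which Cdc20 activates, until every kinetochore is attached to the spindle. The chromosomal passenger complex corrects wrong attachments and later helps to cut the cell. Transcripts of these genes accumulate in G2 and mitosis, mostly through the DREAM complex, B-Myb and Foxm1, and in the neural tube of this age most cells are dividing neuroepithelial progenitors. In whole tissue, a larger share of cells in G2 or mitosis and more RNA per such cell cannot be told apart.

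Libraries held 8211942 to 11218682 counts, and all 38 genes passed the expression filter, as did 14542 genes in all. The lowest count of any of the 38 in any embryo was 533 and the highest was 14923. Together they took 1.02% to 1.08% of the counts in affected females, 0.914% to 0.999% in control males and 0.962% to 1.01% in control females. Levels are TMM-normalised CPM, that is, counts scaled to a common library size. Differences were tested with the quasi-likelihood method of edgeR on all genes at once; each log2 fold change is given with its standard error (SE) and a Benjamini-Hochberg adjusted p over all tested genes. A gene is called changed where the adjusted p is under 0.05. No litter, dissection day or sequencing date is in the labels, and the p-values measure the spread between these embryos only. Control female 1 and control male 4 differed most from the other libraries of their groups, by a chi-square over all genes of 18.1 and 21.3 per degree of freedom for control female 1 (against 2.73 between the other control females) and of 14.3 to 31.6 for control male 4 (against 6.77 to 11.6 between the other control males). Counts of called genes are therefore also given without these embryos. The share of counts from mitochondrial genes was 1.31% to 1.69% in affected females, 2.06% to 3.82% in control males and 2.48% to 4.99% in control females, and it was lowest within each control group in these same embryos.

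Because the genes are known as a co-regulated group, their promoters were read first, in RefSeq windows of 300 bases (250 before to 50 after the annotated start, GRCm38.p6). A window was found for 32 of the 38 genes. Both strands were searched for the cell cycle homology region bound by DREAM, whose usual letters are TTTGAA. A variant of it that reads TTCGAA was searched as well, and so was another that reads TTTAAA. The last motif was CCAAT, the box bound by NF-Y. TTTGAA or TTCGAA stood in 26 of the 32 genes (81.25%), against 16.159% of the 10873 tested genes in the table. CCAAT stood in 24 of 32 (75.0%) against 43.3%, and both kinds together in 22 of 32 (68.75%) against 6.898%. TTTAAA stood in 9 of 32 (28.125%) against 11.046%. These are matches of letters, not measured binding. The 200 bases before the start are shown for 4 genes that were higher in affected females, with every match in capitals, on the strand of the gene.
Plk1, chr7:122159235-122159434, plus strand: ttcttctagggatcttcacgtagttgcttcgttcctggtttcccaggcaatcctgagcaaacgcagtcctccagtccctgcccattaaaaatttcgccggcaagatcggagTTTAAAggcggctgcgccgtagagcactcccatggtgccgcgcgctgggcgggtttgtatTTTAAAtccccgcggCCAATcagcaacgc
Cdc20, chr4:118437344-118437543, minus strand: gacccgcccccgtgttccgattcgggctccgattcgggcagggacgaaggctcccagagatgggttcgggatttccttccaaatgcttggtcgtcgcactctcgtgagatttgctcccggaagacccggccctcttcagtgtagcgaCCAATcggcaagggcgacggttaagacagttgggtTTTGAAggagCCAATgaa
Bub1b, chr2:118598011-118598210, plus strand: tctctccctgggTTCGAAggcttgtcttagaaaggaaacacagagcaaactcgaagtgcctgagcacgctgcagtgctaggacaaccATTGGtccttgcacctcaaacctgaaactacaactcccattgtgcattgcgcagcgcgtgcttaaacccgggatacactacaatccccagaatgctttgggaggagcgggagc
Bub3, chr7:131560170-131560369, plus strand: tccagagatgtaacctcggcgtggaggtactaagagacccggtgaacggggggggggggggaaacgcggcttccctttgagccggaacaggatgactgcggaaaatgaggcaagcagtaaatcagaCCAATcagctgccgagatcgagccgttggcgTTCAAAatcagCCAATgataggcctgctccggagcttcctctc
In Cdc20 a TTTGAA begins 18 bases before the start with a CCAAT on either side of it, and in Bub3 the reverse form TTCAAA begins 43 bases before the start between a pair of CCAAT boxes. In Plk1 the matches are TTTAAA at 89 and 29 bases and CCAAT at 14 bases before the start, and its TTTGAA lies after the start, at position 31. Bub1b has TTCGAA at 188 bases and the reverse CCAAT letters (ATTGG) at 113 bases before the start, and TTTGAA at position 41 after it. The windows of Mad2l1 and Nuf2, genes that were lower in affected females, hold none of these letters, whereas that of Cdc25b, also lower, holds TTCGAA at position 8 and ATTGG at 28 bases before its start. Bases just after the start were found in a GENCODE transcript of the same gene for 25 of 35 windows. For Mad2l1 they were not, and the Cdc25b window takes its start at 131186948, inside the gene. Whether these windows lie at the starts used in this tissue was not tested.

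On a scale per length (RPKM, the CPM divided by the gene length in kilobases), Top2a was the most abundant of the 38 genes with a mean of 208.7 RPKM over all embryos. Smc4 followed with 139.9 RPKM, and Cenpa and Mad2l1 with 122 and 121 RPKM. The lowest was Cdc25b with 28.8 RPKM, next to Cenpf with 30.2 RPKM. All 38 were thus well detected in every group, and their differences between groups were small beside their differences in level from gene to gene.

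**Figure D1:**
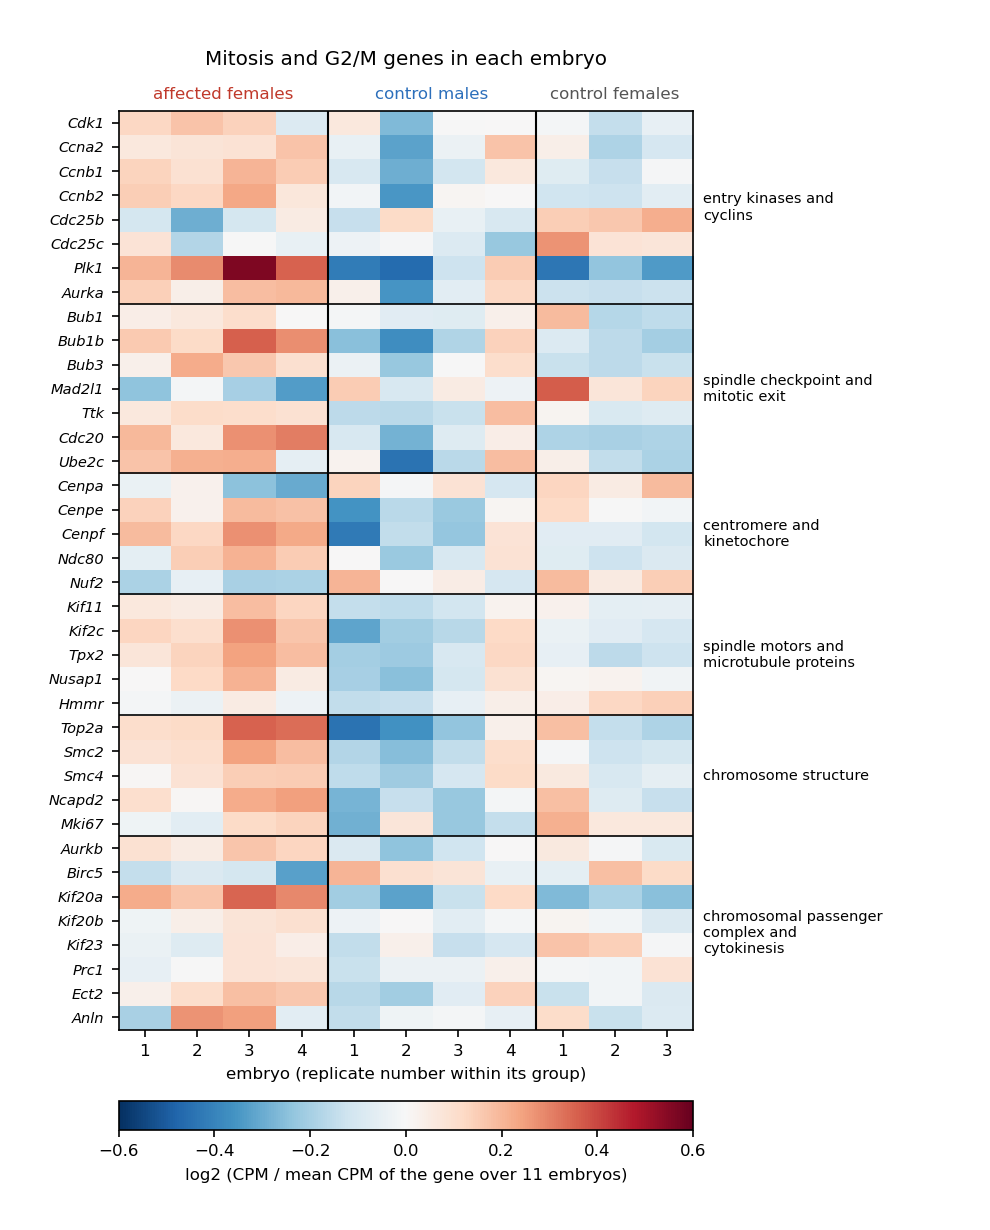
Level of each of the 38 mitosis and G2/M genes (rows, ordered by role) in each of the 11 embryos (columns, by group and replicate number), as the log2 of its CPM over its mean CPM in all embryos. Affected females are mostly red and control males 1 to 3 mostly blue, while Mad2l1, Nuf2, Cenpa and Birc5 show the opposite, and control male 4 is pale or red in most rows.

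Affected females were first compared with control females, which differ from them in p53 genotype and in being affected. Of the 38 genes, 5 were higher in affected females (Plk1, Kif20a, Cdc20, Bub1b and Bub3) and 3 were lower (Mad2l1, Nuf2 and Cdc25b). The other 30 were not called. Of the 38, 19 had an unadjusted p under 0.05 (edgeR), beside 6170 of the 14542 tested genes. DESeq2 called 10 higher and 5 lower (26.3% higher, against 14% of all genes). limma voom with sample weights called 24 higher and 5 lower (63.2% higher, against 25.4% of all genes). The called share was 21.1%, against 28% of all tested genes; 13.2% were called higher, against 13%, and 15% of all tested genes were called lower. The median log2 fold change of the 38 was 0.15, against -0.0049 for all tested genes, and 29 of 38 lay above 0. Ranges of the embryos did not overlap for 22 genes, 17 higher and 5 lower, which is 57.9% against 40.2% of all tested genes (20.2% higher and 20% lower).
The number of higher genes was 3 (7.89%) without affected female 3, affected female 4, control female 2 or control female 3. Of all genes, 4.63%, 6.88%, 4.77% and 3.8% were called higher in these fits. The number of lower genes was 1 without affected female 1, affected female 3 or control female 3, where 12.8%, 8.94% and 7.54% of all genes were called lower. All groups share the estimate of spread. Leaving out control male 2 gave 9 higher and 5 lower (23.7% higher, against 15.7% of all genes in that fit). Leaving out control male 4 gave 12 and 5 (31.6% higher, against 16.3%), and in each of these fits 17.9% of all genes were called lower. Leaving out control female 1 with control male 4 gave 15 and 5 (39.5% higher, against 19% of all genes in that fit).

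The control males have the same p53-/- Bim+/- genotype as the affected females, and the labels separate these groups by sex and by the word affected. Against these males 11 of the 38 genes were higher in affected females and none was lower in the main edgeR fit. Of the 38, 20 had an unadjusted p under 0.05 (edgeR), beside 5424 of the 14542 tested genes. The share called higher was 28.9%, against 9.51% of all tested genes, and the share called in either direction was 28.9% against 20.2%. DESeq2 called 14 higher (36.8%, against 11.4% of all genes) and 1 lower, Birc5 (11.5% of all genes lower). limma voom with sample weights called 23 higher (60.5%, against 21.6%) and 4 lower, Mad2l1, Cenpa, Nuf2 and Birc5 (22.4% of all genes lower). With the length trend removed edgeR called 10 higher (26.3%, against 9.35%), and with length and GC trends removed 15 (39.5%, against 9.57%). Both of these fits called Birc5 lower (10.2% of all genes lower in each). The 11 higher genes of the main fit were Plk1, Kif20a, Top2a, Cenpf, Cdc20, Bub1b, Cenpe, Kif2c, Ncapd2, Smc2 and Ccnb1. The median log2 fold change was 0.19, against -0.018 for all tested genes, and 33 of 38 genes lay above 0. Ranges did not overlap for 12 genes, 11 higher and 1 lower (31.6% against 19.5% of all tested genes, 10.1% higher and 9.43% lower). Plk1, Kif20a, Cdc20 and Bub1b were called in both comparisons, which share the affected females.
The count of 11 depended on which embryos were in the fit, and the share of all tested genes called higher moved with it. It fell to 0 without affected female 3, where 1.23% of all genes were called higher. It was 2 without affected female 4 (5.26%, against 3.73% of all genes) and 6 without affected female 1 (15.8%, against 6.63%). Leaving out affected female 2 gave 9 (23.7%, against 7.47%). Omitting control male 1 left 1 gene (2.63%, against 2%), and omitting control male 2 or 3 left 3 genes (7.89%, against 3.68% and 4.15%). Omitting control male 4 raised the count to 22 (57.9%, against 17.1%). Without control male 4 and control female 1 together, 24 of the 38 were called higher (63.2%, against 19.9% of all genes) and 3 lower.

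Control males and control females differ in both p53 genotype and sex. None of the 38 genes was called between them by edgeR, where 0.144% of all tested genes were (0.0481% higher and 0.0963% lower in males). Of the 38, 6 had an unadjusted p under 0.05 (edgeR), beside 891 of the 14542 tested genes. DESeq2 likewise called none, and limma voom with sample weights called 5 of them lower in males (Cdc25b, Cenpe, Hmmr, Mki67 and Kif23), with 6% of all genes called lower. The median log2 fold change was -0.03, against -0.00089 for all tested genes, and 15 of 38 lay above 0. Ranges did not overlap for 3 genes, all lower in males (7.89%, against 5.54% of all tested genes, 2.99% higher and 2.54% lower). The smallest unadjusted p-values in edgeR belonged to Cdc25c with a log2 fold change of -0.23 (SE 0.09), Mki67 with -0.25 (SE 0.11), Cdc25b with -0.21 (SE 0.09) and Kif23 with -0.19 (SE 0.08), all lower in males and each with an adjusted p of 0.773. The other 34 genes lay between a log2 fold change of -0.21 and 0.14. An adjusted p above the threshold does not show that the groups were alike.

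**Figure D2:**
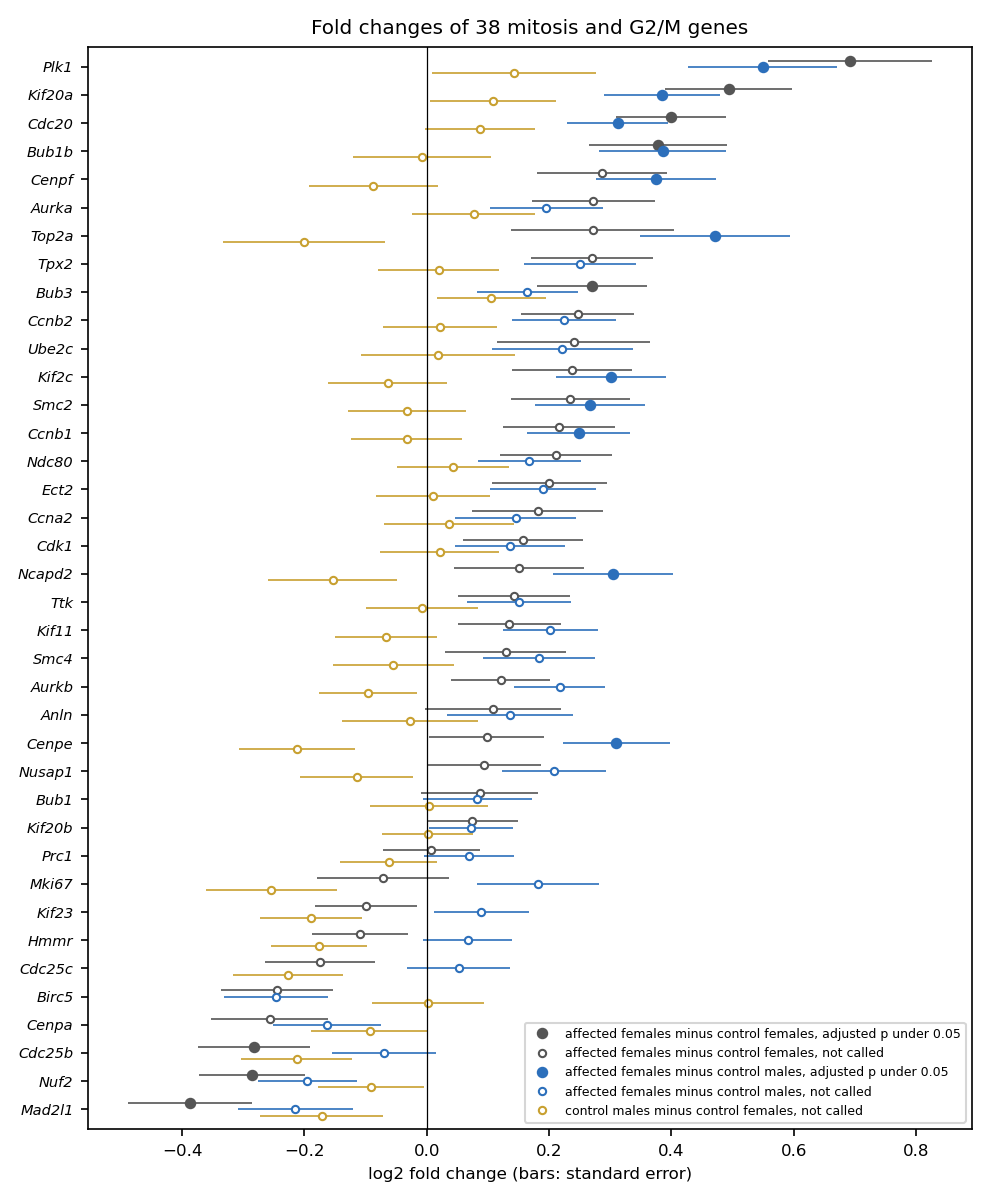
Log2 fold change of each of the 38 genes (rows, ordered by the change against control females) for affected females minus control females (grey), affected females minus control males (blue) and control males minus control females (yellow); bars are standard errors and filled points have an adjusted p under 0.05. Plk1 lies farthest right with 0.69 and 0.55, and no yellow point is filled.

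Among the kinases and cyclins of mitotic entry, 1 of 8 genes was higher and 1 lower against control females (25%, beside 28% of all tested genes), and 2 were higher against control males (25%, beside 20.2%). Plk1 (chromosome 7, 122159435 to 122169884), the Polo-like kinase that matures centrosomes and activates Cdk1 at entry, stood at 117, 123, 149 and 129 CPM in affected females 1 to 4. It stood at 75.5, 73.4, 92.7 and 112 CPM in control males 1 to 4 and at 74.9, 85.7 and 79.8 CPM in control females 1 to 3. Every affected female lay above every control, with control male 4 nearest to affected female 1. The means were 129.5 ± 13.9 CPM (SD, n = 4) in affected females, 88.5 ± 18.1 CPM (SD, n = 4) in control males and 80.2 ± 5.43 CPM (SD, n = 3) in control females. Plk1 was 1.62-fold higher than in control females, in log2 units 0.69 (SE 0.13, adjusted p = 0.00414, edgeR), and 1.46-fold higher than in control males, with 0.55 (SE 0.12, adjusted p = 0.0118, edgeR). It kept its call against control females in all 17 alternatives run, and against control males in 17 of 18, the exception being the fit without affected female 3 (adjusted p = 0.0565, edgeR; 9.72e-05 to 0.0565 over the 18).
Cdc25b (chromosome 2, 131186436 to 131198511), a phosphatase that removes the inhibitory phosphates from Cdk1, was lower instead. It had 84.3, 74.0, 84.3 and 93.9 CPM in the affected females and 100.3, 101 and 105 CPM in control females, with no overlap. Its log2 fold change was -0.28 (SE 0.09, adjusted p = 0.0328, edgeR). The control males, at 82.3, 98.2, 87.9 and 84.9 CPM, overlapped the affected females, with -0.07 (SE 0.08, adjusted p = 0.572, edgeR). The call against control females was lost without affected female 1, 2 or 3 or control female 2 or 3, and without the filter on low counts (adjusted p of 0.0511 to 0.113, edgeR).
Ccnb1 (chromosome 13, 100778739 to 100786486), the B-type cyclin that forms the main mitotic kinase with Cdk1, was called against control males and not against control females. Its levels were 298, 289, 313 and 302 CPM in affected females and 254, 222, 252 and 284 CPM in control males, which do not overlap, and 258, 247 and 271 CPM in control females. Its log2 fold change was 0.25 (SE 0.08, adjusted p = 0.0484, edgeR) against males and 0.22 (SE 0.09, adjusted p = 0.0849, edgeR) against control females. The call against males was lost in 9 of 18 alternatives, 7 of them with 1 embryo left out (each affected female or control males 1 to 3).
Cdk1 itself had 292, 301, 294 and 252 CPM in affected females, 279, 222, 267 and 267 CPM in control males and 265, 242 and 259 CPM in control females, with overlapping ranges. Its log2 fold change was 0.16 (SE 0.10, adjusted p = 0.229, edgeR) against control females. Aurka, the Aurora A kinase of the centrosome, was just outside the threshold against control females with 0.27 (SE 0.10, adjusted p = 0.0539, edgeR), and Ccnb2, the other B-type cyclin, lay just outside it against control males with 0.22 (SE 0.09, adjusted p = 0.0704, edgeR). Ccna2, the A-type cyclin, and Cdc25c, the other phosphatase, had log2 fold changes of 0.18 (SE 0.11) and -0.17 (SE 0.09) against control females, not called by edgeR.

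The spindle checkpoint and mitotic exit held the largest number of calls against control females: 3 of 7 genes were higher and 1 lower (57.1%, beside 28% of all tested genes), and against control males 2 were higher (28.6%, beside 20.2%). Cdc20 (chromosome 4, 118432901 to 118437343), the activator of the anaphase-promoting complex and the target of the checkpoint, had 156, 143, 165 and 169 CPM in affected females. In control females it had 120.4, 119.7 and 120.3 CPM and in control males 128, 112, 129.7 and 140.5 CPM. The affected females lay above all 7 controls. This gave a log2 fold change for Cdc20 of 0.40 (SE 0.09, adjusted p = 0.00746, edgeR) against control females, called in all 17 alternatives, and 0.31 (SE 0.08, adjusted p = 0.0212, edgeR) against males, lost without affected female 3 or 4 or control male 1 or 2 (adjusted p of 0.0541 to 0.077, edgeR).
Bub1b (chromosome 2, 118598202 to 118641592) encodes BubR1, the checkpoint kinase-like protein that binds Cdc20. Its levels were 328, 319, 378 and 357 CPM in affected females, 247, 227, 259.7 and 324 CPM in control males and 278, 264 and 255 CPM in control females. Control male 4 overlapped the affected females; the other controls did not. The log2 fold change was 0.38 (SE 0.11, adjusted p = 0.0244, edgeR) against control females and 0.39 (SE 0.10, adjusted p = 0.0226, edgeR) against males. Leaving out affected female 3 or 4 ended both calls (adjusted p of 0.0612 to 0.0887, edgeR), as did leaving out control female 2 or 3 for the former (0.0781 and 0.0947) and control male 1, 2 or 3 for the latter (0.0591 to 0.0782).
Bub3 (chromosome 7, 131560367 to 131571895), which brings Bub1 and BubR1 to the kinetochore, had 208, 237, 227 and 217 CPM in affected females against 185, 183 and 185 CPM in control females, with no overlap. It had 198, 174, 203 and 219 CPM in control males, which overlap. The log2 fold change was 0.27 (SE 0.09, adjusted p = 0.0364, edgeR) against control females and 0.16 (SE 0.08, adjusted p = 0.158, edgeR) against males. The former was lost in 7 of 17 alternatives, 6 of them with 1 embryo left out (affected female 2, 3 or 4 or any control female), with an adjusted p of up to 0.107 (edgeR).
Mad2l1 (chromosome 6, 66535221 to 66541107), which encodes MAD2, the checkpoint protein that captures Cdc20, moved the other way. It had 177, 207, 182 and 166 CPM in affected females, 232, 196, 216 and 205 CPM in control males and 269, 219.6 and 229 CPM in control females. Affected females lay below all control females and overlapped the males. It was 1.31-fold lower than in control females, with -0.39 (SE 0.10, adjusted p = 0.0138, edgeR), called in all 17 alternatives, and had -0.22 (SE 0.09, adjusted p = 0.109, edgeR) against males. Cdc20 and Mad2l1, which bind each other as proteins, thus differed in opposite directions from control females. Bub1, the checkpoint kinase, Ttk, the kinase at its top, and Ube2c, the ubiquitin-conjugating enzyme of the anaphase-promoting complex, were at 0.09 (SE 0.10), 0.14 (SE 0.09) and 0.24 (SE 0.13) in log2 fold change against control females, none called by edgeR.

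At the centromere and kinetochore, 1 of 5 genes was lower against control females (20%, beside 28%) and 2 were higher against control males (40%, beside 20.2%). Nuf2 (chromosome 1, 169497934 to 169531464) is a subunit of the NDC80 complex, which grips the ends of spindle microtubules. It had 130.0, 143, 129.6 and 129.8 CPM in affected females against 169, 154 and 164 CPM in control females and 171, 148, 153 and 138 CPM in control males. The affected females lay below all control females, and affected female 2 lay above control male 4. The log2 fold change was -0.29 (SE 0.09, adjusted p = 0.0253, edgeR) against control females and -0.19 (SE 0.08, adjusted p = 0.0916, edgeR) against males. The call was lost in 6 of 17 alternatives, 5 of them with 1 embryo left out (affected female 1, 3 or 4, control female 1 or 3), with an adjusted p of up to 0.087 (edgeR). Its partner Ndc80 differed by 0.21 (SE 0.09, adjusted p = 0.0908, edgeR) in the same comparison, so that these subunits of 1 complex lay on opposite sides of 0.
Cenpf (chromosome 1, 189640606 to 189688107), a large protein of the outer kinetochore, had 382, 366, 405 and 393 CPM in affected females, above 249.9, 303, 286 and 356 CPM in control males and 320.4, 319.9 and 311 CPM in control females. The log2 fold change was 0.37 (SE 0.10, adjusted p = 0.0203, edgeR) against males and 0.29 (SE 0.11, adjusted p = 0.0548, edgeR) against control females. Cenpe (chromosome 3, 135212563 to 135273540), the kinesin that carries chromosomes to the spindle equator, had 266, 246, 275 and 273 CPM in affected females, 189, 216, 207 and 244 CPM in control males and 263, 241 and 239 CPM in control females. It was higher than in males, with 0.31 (SE 0.09, adjusted p = 0.0254, edgeR), but overlapped control females, with 0.10 (SE 0.09, adjusted p = 0.444, edgeR). Both calls against males were lost when the trend with gene length was removed from each library, with log2 fold changes of 0.25 for Cenpf and 0.22 for Cenpe (adjusted p = 0.0571 and 0.0537, edgeR; up to 0.0754 and 0.0922 over all alternatives). With length and GC trends removed both were called, at 0.27 and 0.24 (adjusted p = 0.0428 and 0.035, edgeR). Both were lost without affected female 3 or 4 or control male 1 or 3; Cenpe was also lost without affected female 1 or control male 2. Cenpa, the histone H3 variant that marks centromeres, had 158, 166, 137 and 132 CPM in affected females and 178, 168 and 185 CPM in control females, with -0.26 (SE 0.10, adjusted p = 0.056, edgeR), just outside the threshold. DESeq2 and limma voom called Cenpa lower against control females, whereas RLE scaling and robust fitting did not.

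Of the spindle motors and microtubule proteins, none of 5 was called against control females by edgeR (2 had an unadjusted p under 0.05), and 1 was higher against control males (20%, beside 20.2%). Kif2c (chromosome 4, 117159633 to 117182624), a kinesin that takes microtubules apart at centromeres, had 163, 160.2, 180.5 and 167 CPM in affected females and 120.0, 129, 133 and 162 CPM in control males, where control male 4 overlaps. In control females it had 145, 143 and 139 CPM. For Kif2c the log2 fold change was 0.30 (SE 0.09, adjusted p = 0.0313, edgeR) against males and 0.24 (SE 0.10, adjusted p = 0.0771, edgeR) against control females. The call was lost without affected female 1, 3 or 4 or control male 1, 2 or 3 (adjusted p of 0.0505 to 0.11, edgeR). Tpx2, the spindle protein that activates Aurora A, had 455, 475, 511 and 491 CPM in affected females, 375, 371, 405 and 472 CPM in control males and 418, 387 and 397 CPM in control females. In the main fit Tpx2 lay just outside the threshold with 0.27 (SE 0.10, adjusted p = 0.0535, edgeR) against control females and 0.25 (SE 0.09, adjusted p = 0.0622, edgeR) against males. Kif11, the motor that pushes spindle poles apart, Nusap1, a protein that bundles spindle microtubules, and Hmmr, a spindle pole protein, were at 0.14 (SE 0.08), 0.09 (SE 0.09) and -0.11 (SE 0.08) in log2 fold change against control females, not called by edgeR.

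For chromosome structure, none of 5 genes was called against control females by edgeR (1 had an unadjusted p under 0.05) and 3 were higher against control males (60%, beside 20.2%). Top2a (chromosome 11, 98992947 to 99024199), the topoisomerase that untangles sister chromatids, had 1171, 1179, 1391 and 1372 CPM in affected females and 802, 847, 924 and 1114 CPM in control males, without overlap. Control female 1, at the head of 1234, 986 and 959 CPM in control females, lay above affected females 1 and 2. For Top2a the log2 fold change was 0.47 (SE 0.12, adjusted p = 0.0201, edgeR) against males and 0.27 (SE 0.13, adjusted p = 0.132, edgeR) against control females. Ncapd2 (chromosome 6, 125168007 to 125192100), a subunit of condensin I, had 475, 446, 517 and 525 CPM in affected females, 366, 404, 379 and 441 CPM in control males and 502, 420.5 and 403 CPM in control females, with 0.30 (SE 0.10, adjusted p = 0.0404, edgeR) against males. Smc2 (chromosome 4, 52439221 to 52488365), the core ATPase shared by the condensins, had 376, 379.8, 419 and 402 CPM in affected females, 313, 297, 319.7 and 380.2 CPM in control males and 352, 324 and 329 CPM in control females. Its log2 fold change was 0.27 (SE 0.09, adjusted p = 0.0476, edgeR) against males, where control male 4 overlapped the affected females. Removing the length trend ended the calls of Ncapd2 and Smc2, at log2 fold changes of 0.27 and 0.21 (adjusted p = 0.0503 and 0.0969, edgeR; up to 0.126 and 0.148 over all alternatives). With length and GC trends removed Smc2 was called at 0.30 (adjusted p = 0.033, edgeR) and Ncapd2 was not, at 0.25 (adjusted p = 0.063, edgeR). Top2a lost its call without affected female 3 or 4 or control male 1, 2 or 3 (adjusted p of 0.0508 to 0.0775, edgeR), and Ncapd2 and Smc2 also without affected female 1 and, for Smc2, affected female 2.
Mki67, the gene of the proliferation marker Ki-67, which coats mitotic chromosomes, was not called in any comparison by edgeR. It had 861, 839, 949 and 961 CPM in affected females, 717, 922, 748 and 794 CPM in control males and 1015, 915 and 916 CPM in control females, with overlap between all groups. Its log2 fold change was -0.07 (SE 0.11, adjusted p = 0.635, edgeR) against control females and 0.18 (SE 0.10, adjusted p = 0.192, edgeR) against males. Smc4, the other condensin ATPase, had 0.13 (SE 0.10) and 0.18 (SE 0.09).

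In the chromosomal passenger complex and cytokinesis, 1 of 8 genes was higher in both comparisons (12.5%, beside 28% and 20.2%). Kif20a (chromosome 18, 34624624 to 34633277), the kinesin that carries the passenger complex to the midzone of the anaphase spindle, had 400.0, 386, 438 and 419 CPM in affected females. Control males had 297, 275, 313 and 373 CPM and control females 286, 301 and 289 CPM. All affected females lay above all controls, with control male 4 nearest. It was 1.41-fold higher than in control females, with 0.49 (SE 0.10, adjusted p = 0.0056, edgeR), called in all 17 alternatives. It was 1.31-fold higher than in control males, with 0.39 (SE 0.10, adjusted p = 0.017, edgeR), lost without affected female 3 or control male 1 (adjusted p = 0.0684 and 0.0622, edgeR). Exons of Kif20a overlap those of Cdc23, on the opposite strand, over 977 bases in the GENCODE annotation. Cdc23, a subunit of the anaphase-promoting complex, had 0.30 (SE 0.10, adjusted p = 0.0371, edgeR) against control females, a call lost without affected female 2, 3 or 4 or control female 2 or 3 (adjusted p of 0.0582 to 0.121, edgeR). The sources used here do not give whether strand was used in counting. Among the other called genes, overlaps with an opposite gene are annotated for Plk1 (156 bases), Cdc25b (92 bases) and Cdc20 (53 bases), and overlaps with a small RNA on the same strand for Ncapd2 (237 bases, Scarna10) and Top2a (122 bases). Of the genes not called by edgeR, Prc1 (670 bases), Cdc25c (623), Ccna2 (428), Nusap1 (172) and Ube2c (144) overlap an opposite gene.
Birc5, which encodes survivin, the subunit that places the passenger complex on centromeres, had 148, 153, 151 and 129.8 CPM in affected females, 188, 174, 172 and 158 CPM in control males and 156, 185 and 176 CPM in control females. Affected females lay below every control male and every control female. In the main fit the difference was just outside the threshold both against control females, with -0.24 (SE 0.09, adjusted p = 0.0571, edgeR), and against males, with -0.25 (SE 0.09, adjusted p = 0.0522, edgeR). DESeq2 and limma voom called Birc5 lower in both comparisons, as did the fit without control female 1 and control male 4. RLE scaling and robust fitting called it in neither. Aurkb, the kinase of the same complex, had 119, 116, 126 and 122 CPM in affected females against 106, 94.9, 103 and 112 CPM in control males, with 0.22 (SE 0.07, adjusted p = 0.0507, edgeR). The cytokinesis genes Prc1, which bundles midzone microtubules, Kif23, of centralspindlin, Kif20b, a midbody kinesin, Ect2, the activator of RhoA, and Anln, the ring scaffold anillin, were not called by edgeR. Their log2 fold changes lay between -0.10 (SE 0.08) (Kif23) and 0.20 (SE 0.09) (Ect2) against control females and between 0.07 (SE 0.07) (Prc1) and 0.19 (SE 0.09) (Ect2) against males.

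**Figure D3:**
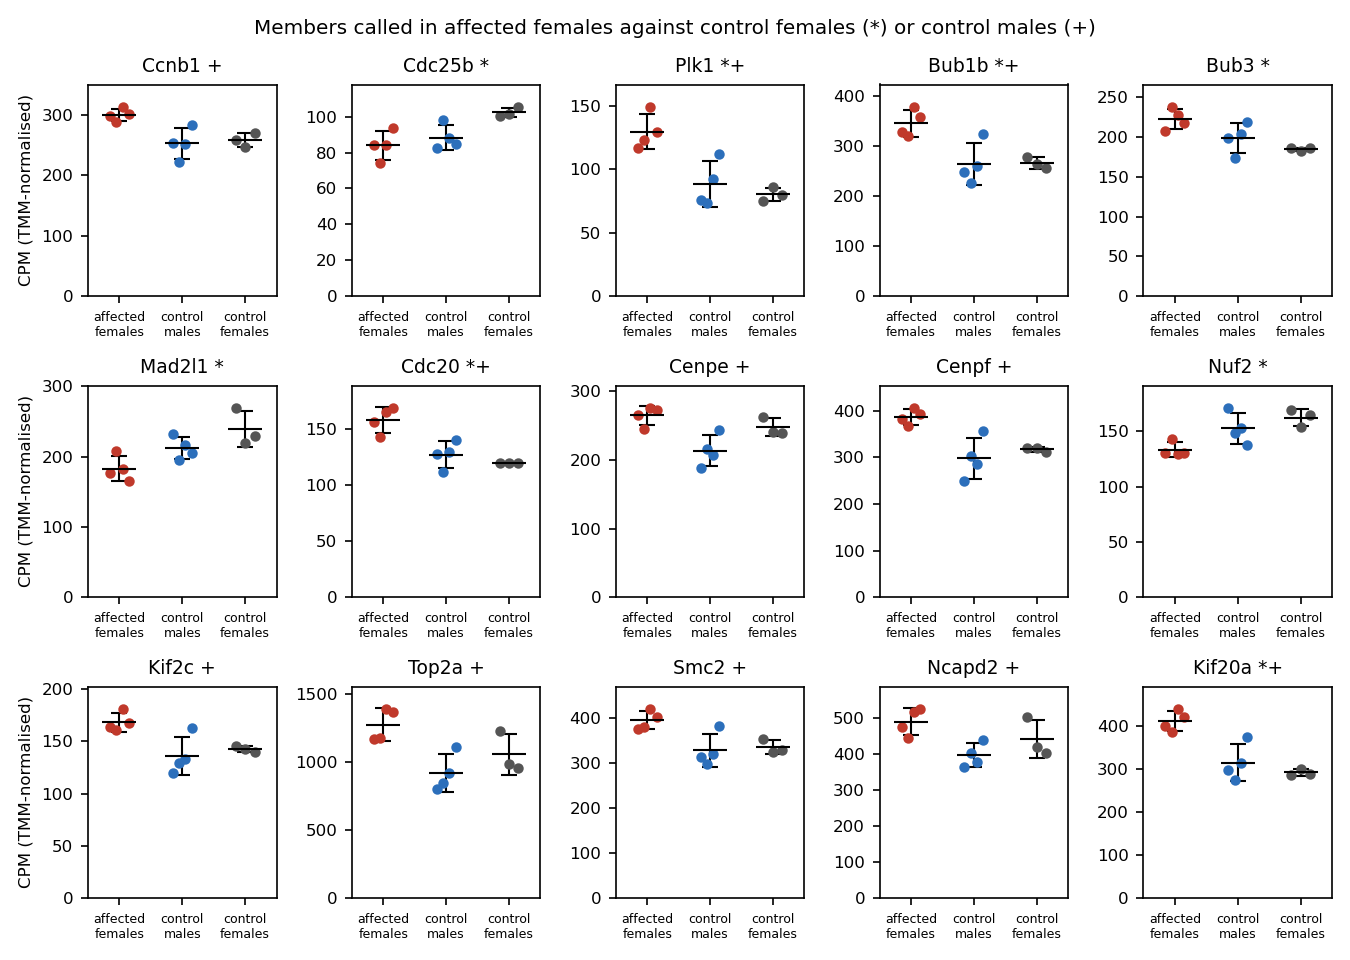
CPM of the 15 genes called in affected females against control females (*) or control males (+), 1 point per embryo, with the mean and SD of each group as lines (4 affected females, 4 control males, 3 control females; axes start at 0). Plk1, Kif20a and Cdc20 in affected females lie above all 7 controls, and for Bub1b, Kif2c and Smc2 control male 4 reaches into the range of the affected females.

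As a description of the whole group, the mean over the 38 genes of log2 CPM, centred for each gene on the mean of all embryos, was 0.05, 0.07, 0.16 and 0.09 in affected females 1 to 4. It was -0.11, -0.17, -0.08 and 0.05 in control males 1 to 4, and 0.03, -0.05 and -0.04 in control females 1 to 3. Affected females averaged 0.09 ± 0.05 (SD, n = 4), control males -0.08 ± 0.09 (SD, n = 4) and control females -0.02 ± 0.04 (SD, n = 3). The highest control was control male 4 at 0.046, followed by control female 1 at 0.0271. Both lay below the lowest affected female, affected female 1 at 0.0529, but for control male 4 the gap was small beside the SD of each group. The affected females exceeded the control females by 0.12 on this log2 scale and the control males by 0.17. No test is given for this mean, since its members were chosen with earlier results known. Without control female 1 and control male 4 the differences were 0.15 and 0.22. Both embryos had the highest mean of their control group, so leaving them out was bound to widen the differences.

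**Figure D4:**
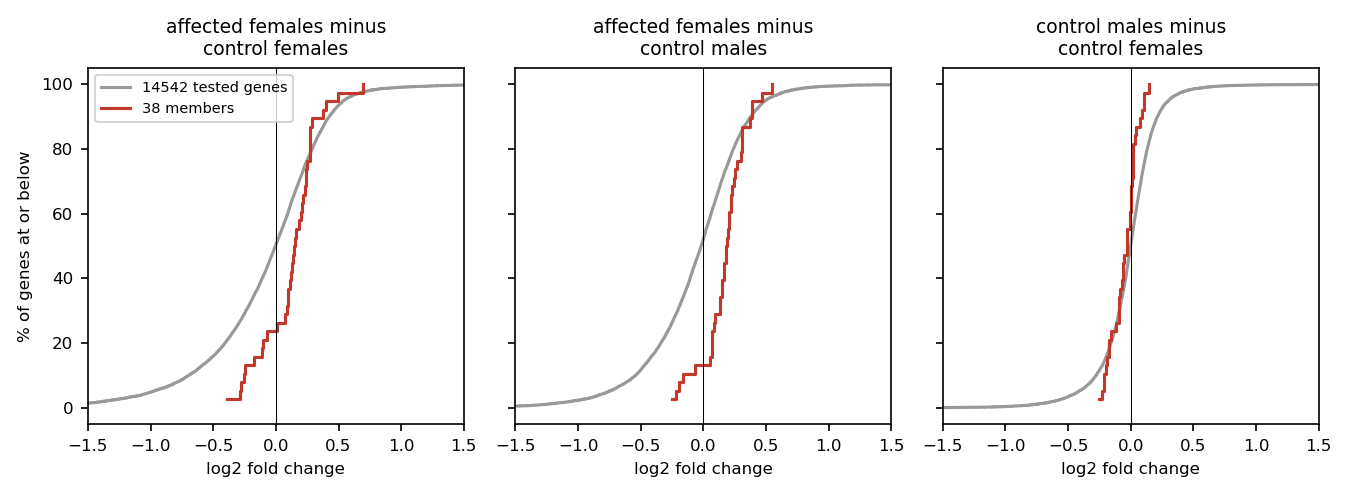
Cumulative share of genes (vertical axis, %) at or below each log2 fold change (horizontal axis, shown from -1.5 to 1.5) for the 38 mitosis and G2/M genes (red steps) and all 14542 tested genes (grey), in the 3 comparisons. In both comparisons of affected females the red steps lie to the right of the grey line over most of the range, with medians of 0.15 and 0.19, and between the control groups the median is -0.03.

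The other genes of the division machinery were read from a wider list of 94 genes, all tested, that shares none of the 38. Against control females 10 of the 94 were higher and 13 lower, a called share of 24.5% beside the background of 28%, with a median log2 fold change of 0.01. Against control males 13 were higher and 10 lower, again 24.5% beside 20.2%, with a median of 0.04. None was called between control males and control females by edgeR, and 5 had an unadjusted p under 0.05. The lowest adjusted p-values against control females all belonged to genes that were lower. They were Cep55, of midbody abscission, with -0.54 (SE 0.11, adjusted p = 0.00448, edgeR), Hjurp, the chaperone of Cenpa, with -0.77 (SE 0.16, adjusted p = 0.00496, edgeR), and Psrc1, a spindle protein, with -0.54 (SE 0.11, adjusted p = 0.00496, edgeR). Ska1, of the kinetochore, with -0.45 (SE 0.10, adjusted p = 0.00774, edgeR), Troap with -0.60 (SE 0.14, adjusted p = 0.00806, edgeR) and Cenpt, of the inner kinetochore, with -0.52 (SE 0.12, adjusted p = 0.00829, edgeR) followed. Against control males the lowest were Kif4, the X-linked chromosome-arm kinesin, higher with 0.58 (SE 0.09, adjusted p = 0.00563, edgeR), and Ska1, lower with -0.50 (SE 0.10, adjusted p = 0.00913, edgeR). Ckap5, a microtubule polymerase, was higher with 0.72 (SE 0.15, adjusted p = 0.0109, edgeR). Its call ended without affected female 3 (adjusted p = 0.0501, edgeR).

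Regulators of the G2/M programme numbered 24, all tested. Against control females 2 were higher and 2 lower (16.7%, beside 28%), against control males 1 was higher and 1 lower (8.33%, beside 20.2%), and none was called between the control groups by edgeR, where 1 had an unadjusted p under 0.05. Foxm1 is the transcription factor that activates many of the 38 genes. It had 158, 161, 165 and 173 CPM in affected females against 208, 206 and 189 CPM in control females. This difference was called, with -0.29 (SE 0.08, adjusted p = 0.0147, edgeR). Against control males Foxm1 was not called, with -0.13 (SE 0.07, adjusted p = 0.201, edgeR). E2f4, a subunit of the DREAM complex, was higher, with 0.41 (SE 0.11, adjusted p = 0.0126, edgeR) against control females and 0.32 (SE 0.10, adjusted p = 0.0318, edgeR) against males. Of the kinases that inhibit Cdk1, Pkmyt1 was lower, with -0.49 (SE 0.14, adjusted p = 0.0231, edgeR) against control females and -0.42 (SE 0.13, adjusted p = 0.039, edgeR) against males, and Wee1 was higher, with 0.27 (SE 0.09, adjusted p = 0.0316, edgeR) against control females. Calls of these 4 were lost in some of the fits that left out 1 embryo. Against control females, Foxm1 lost its call without control female 2, E2f4 without control female 2 or 3, Pkmyt1 without affected female 3 or control female 2 or 3, and Wee1 without affected female 2, 3 or 4 or any control female (adjusted p of 0.0515 to 0.107, edgeR). Against males, E2f4 lost it without affected female 3 or 4 or control male 1, 2 or 3, and Pkmyt1 without any affected female or control male 1, 2 or 3 (adjusted p of 0.06 to 0.121, edgeR).
Brakes on the cell cycle that p53 can induce numbered 13. Against control females, which are p53+/+, 6 were lower and 1 higher in affected females (53.8%, beside 28%). Against the p53-/- males 2 were lower (15.4%, beside 20.2%), and 1, Ccng1, was lower in control males than in control females (7.69%, beside 0.144%). Ccng1, a direct p53 target, had 22.3, 24.3, 21.8 and 24.5 CPM in affected females, 28.8, 33.5, 31.8 and 27.5 CPM in control males and 93.8, 74.7 and 92.8 CPM in control females, so that it was low in all 8 p53-/- embryos. Cdkn1a, the p21 inhibitor of cyclin-dependent kinases, through which p53 represses many G2/M genes, had 2.49, 1.64, 2.24 and 2.52 CPM, 2.63, 3.41, 2.66 and 3.64 CPM and 15.3, 4.35 and 5.75 CPM in the same order. Control female 1 stood well above the other control females. The log2 fold change of Cdkn1a was -1.90 (SE 0.36, adjusted p = 0.00376, edgeR) against control females, or 3.73-fold lower, and -0.47 (SE 0.37, adjusted p = 0.363, edgeR) against males. Without control female 1 the former was -1.18 (SE 0.24, adjusted p = 0.00464, edgeR), or 2.27-fold lower.
Genes of G1/S and S phase, 32 in number, showed 13 higher and 1 lower against control females (43.8%, beside 28%), and 8 higher and 1 lower against control males (28.1%, beside 20.2%). The one lower gene was the cyclin Ccne2 in both, with -0.55 (SE 0.10) and -0.53 (SE 0.10), and Pola1, the catalytic subunit of DNA polymerase alpha, was higher by 0.71 (SE 0.15) and 0.77 (SE 0.14).

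Markers of some cell types in the tissue differed between the groups as well. For other cell types the share called was near or below that of all tested genes. The latter was 28% against control females and 20.2% against control males. Of 22 tested early neuron markers (of 23 listed; Onecut1 was at 0 in at least 1 embryo), 15 were lower in affected females and none higher by edgeR, against control females and against control males alike (68.2% in each, beside 28% and 20.2% of all tested genes). Their summed level was 310.3 to 378 CPM in affected females, 452 to 708 CPM in control males and 372 to 724 CPM in control females, with control female 1 lowest among the controls. Of 10 surface ectoderm markers 8 were higher against control females and 7 against control males (80% and 70%), with a summed level of 298 to 338 CPM in affected females, 175 to 241 CPM in control males and 157 to 275 CPM in control females; control male 4 and control female 1 were highest in their groups. Of 10 neural crest markers 8 and 2 were higher (80% and 20%), with summed levels of 414 to 492, 326 to 385 and 288 to 326 CPM in the same order of groups. Of 15 neural progenitor markers 4 were higher and 4 lower against control females, and 1 higher and 2 lower against males (53.3% and 20%), with summed levels of 2469.6 to 2753, 2058 to 2563 and 2139 to 2220.1 CPM. Of 12 head mesenchyme markers 1 was higher in each comparison (8.33%). Of 10 endothelial markers 1 was lower against control females (10%), and by edgeR none was called against males, where 3 had an unadjusted p under 0.05. Of 9 primitive erythroid markers none was called by edgeR (1 and 0 had an unadjusted p under 0.05). The summed erythroid level was 514 CPM in control female 1, against 4203 and 3993 CPM in the other control females and 1066 to 3495 CPM in the other groups. No marker of any of these lists was at 0 in every embryo. Neurons do not divide, and the part of these cell type markers, or of the mitochondrial share, in the levels of the 38 genes was not tested.

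**Figure D5:**
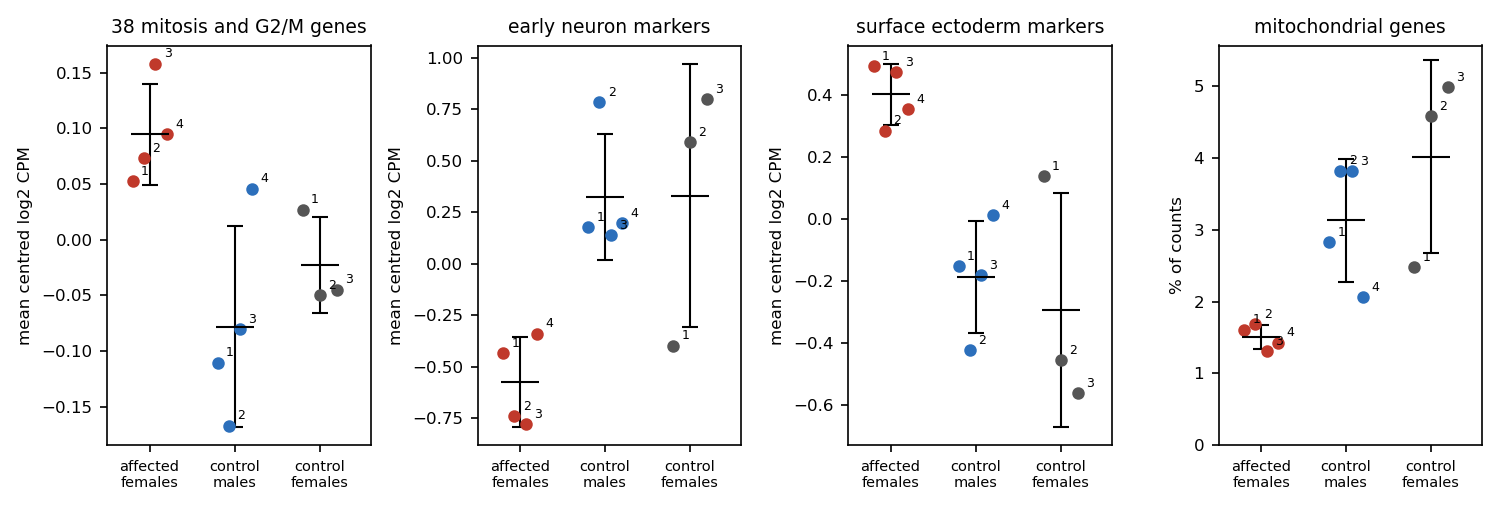
Mean centred log2 CPM per embryo of the 38 mitosis and G2/M genes, of 22 early neuron markers and of 10 surface ectoderm markers, and the share of counts from mitochondrial genes (%), 1 point per embryo labelled with its replicate number; lines give the mean and SD of 4 affected females, 4 control males and 3 control females. Affected females lie above all controls for the 38 genes (0.05 to 0.16), with control male 4 just below affected female 1. They also lie above all controls for the ectoderm markers. For mitochondrial genes they lie below all controls, and for neuron markers below all except control female 1.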

How the data were processed

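The authors deposited whole-number read counts per Entrez gene with a gene length, 1 file per embryo; per the submitters' processing notes these were made with featureCounts on mm10. Not given in the sources used here are aligner and settings, the strand of counting, and the gene annotation. These values were not normalised (totals of 8211942 to 11218682 per library); a deposited series table with equal values was left aside.

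Groups and replicate numbers came from the sample titles. Symbols came from RefSeq (GRCm38.p6, with the coordinates of mm10) for 25275 of 27179 identifiers and matched all 38 members and 252 of 253 other list symbols; exon overlaps came from GENCODE vM21. No libraries of a group agreed within sampling noise: their chi-square per degree of freedom, over genes reaching 20 counts, was 2.73 to 31.6.

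Counts were tested with edgeR 4.0.16 in R 4.3.3: filterByExpr, TMM, 1 quasi-likelihood fit of all 11 libraries with group as the only factor, and Benjamini-Hochberg adjustment over 14542 genes at 0.05. The SE is the log2 fold change over the square root of F. RPKM used the deposited gene lengths, and log2 CPM a prior count of 2. The fit was tested on simulated counts in which 50 genes each were changed by 1.25, 1.5, 2 and 4-fold. All other genes were left unchanged. Simulated 1.25-fold changes were called in 4% of cases for affected against control females. The share was 8% both for affected females against control males and for control males against control females. For 1.5-fold changes the shares were 36%, 56% and 48%, and for 2-fold changes 88%, 76% and 86%, in that order. Most changes of 1.25-fold were thus missed. Alternatives were RLE scaling, no filter, DESeq2 1.42.0, limma 3.58.1 voom with sample weights, robust fitting, the replicate number as a block, removal of length trends (lowess span 0.3), only the groups compared, and leaving out embryos. Removal of length with GC trends, and leaving out embryos for named genes that are not members, were chosen after seeing the data.

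The members and all lists were chosen with earlier results of these data known, so no p is given over a list alone. All 38 members could be named. Full statistics are given for members called in any comparison, values for the 4 next by unadjusted p in each comparison, and from the other lists up to 6 called genes with the smallest adjusted p, not all of which are named. Values of other members (such as Cdk1 and Mki67) and of Cdc23 go beyond this rule; these were chosen for their role or overlap, with values seen. Promoters are printed for the 4 called members with a match and the smallest p against control females that lie outside chromosome 18 and whose printed stretch is not inside the gene.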

Additional observations from a re-analysis of the deposited data

Results flagged for a closer look

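Of 78 groups of 4 embryos (38 genes in affected females and in control males, and the mean over the 38), 3 held 1 embryo whose gap to the nearest other, divided by the range of the group, exceeded the Dixon critical value of 0.829; about 3.9 would be flagged by chance, and the 3 control females were too few to test. Nuf2 stood at 143 CPM in affected female 2, above the 129.6 to 130.0 CPM of the other affected females, with a ratio of 0.967. Ccnb2 stood at 90.1 CPM in control male 2, below the 113 to 115 CPM of the other control males, with a ratio of 0.911. Ttk stood at 110.3 CPM in control male 4, above the 86.7 to 88.4 CPM of the others, with a ratio of 0.931.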

How the results depend on the processing

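Single members were followed under the alternatives for 19 fold changes, those called in the main fit. Of their 334 values, 249 kept their direction and call, 85 kept their direction but lost the call, and none changed sign. Fold changes not called in the main fit are not among these values, so calls gained under an alternative do not appear here. For affected against control females, all genes called numbered 4073, with 7639 by limma voom and 1663 to 4579 leaving out 1 embryo of the groups compared. The number of the 38 genes called higher was 5 (13.2%, beside 13% of all genes). DESeq2 called 10 (26.3%, beside 14%) and voom 24 (63.2%, beside 25.4%). Removing the length trend gave 9 (23.7%, beside 14.4%), and removing length and GC trends gave 10 (26.3%, beside 14.6%). Only the groups compared gave 12 (31.6%, beside 15.7%), and leaving out control female 1 with control male 4 gave 15 (39.5%, beside 19%). Leaving out 1 embryo of these groups gave 3 to 6, beside 3.8% to 14.8% of all genes. The number called lower was 3, beside 15% of all genes. It was 5 by DESeq2, by voom, with length and GC trends removed, with only the groups compared and without these 2 embryos. The shares of all genes called lower in these fits were 15.3%, 27.1%, 15.3%, 18.6% and 19.9%. Leaving out 1 embryo of these groups gave 1 to 3 lower, beside 7.54% to 16.2% of all genes. Leaving out control male 2 gave 9 higher and 5 lower, and control male 4 gave 12 and 5 (33.6% and 34.2% of all genes called). For affected females against control males, all genes called numbered 2940, with 6397 by voom, 6014 without control female 1 and control male 4, and 361 to 5140 leaving out 1 embryo of the groups compared. Of the 38, 11 were called higher (28.9%, beside 9.51% of all genes). DESeq2 called 14 (36.8%, beside 11.4%) and voom 23 (60.5%, beside 21.6%). Removing the length trend gave 10 (26.3%, beside 9.35%), and removing length and GC trends gave 15 (39.5%, beside 9.57%). Only the groups compared gave 9 (23.7%, beside 9.41%), and leaving out these 2 embryos gave 24 (63.2%, beside 19.9%). Leaving out 1 embryo of these groups gave 0 to 22, beside 1.23% to 17.1% of all genes. Leaving out a control female gave 8 to 12, beside 7.92% to 11.9%. In the main fit none was called lower, beside 10.7% of all genes. Voom called 4 lower (beside 22.4%), and the fit without these 2 embryos 3 (beside 21%). DESeq2, removal of the length trend, removal of length and GC trends, and only the groups compared each gave 1. The shares of all genes called lower there were 11.5%, 10.2%, 10.2% and 11%. Leaving out 1 embryo of these groups gave 0 to 2 lower, beside 1.26% to 18.4% of all genes. For control males against control females, all genes called numbered 21, with 43 by DESeq2, 1569 by voom and 18 to 35 leaving out 1 embryo of the groups compared; of the 38, none was called by edgeR and 5 were lower by voom. The cause of these shifts was not tested. The mean level of the 38 genes differed by 0.11 to 0.15 (affected minus control females) and 0.17 to 0.22 (affected females minus control males) over its alternatives.

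The labels do not say that replicate numbers pair the embryos, and the main fit assumed no pairing. Same-numbered embryos correlated by -0.10 to -0.01 between affected and control females and by -0.14 to 0.15 between affected females and control males. Between control males and control females they correlated by -0.09 to 0.18. Not every embryo correlated best with its own number. With 3 or 4 embryos per group, these values cannot exclude shared litters or dates. With the replicate number as a block, all genes called numbered 2875, 3418 and 21, and the 38 genes gave 4 higher and 2 lower, 11 higher and 1 lower, and 0.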
